A study of Mus musculus with 10 samples.

Results

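The 40 genes described here encode nucleolar proteins and ribosome assembly factors, a group whose genes are typical targets of the Myc family of transcription factors. They are a list of names out of 18193 genes on the array, picked with no threshold on measured values but with earlier results of these data known. Where a gene had several probe sets, the brightest by mean log2 signal over the 10 arrays was used. All 40 were measured and all 40 lay among the 11405 genes bright enough to be tested, with a lowest signal of 155 on any array. By role, 4 genes belong to RNA polymerase I and transcription of ribosomal DNA (rDNA), 5 to the nucleolar scaffold and its helicases, 3 to box C/D and 3 to box H/ACA small nucleolar ribonucleoproteins (snoRNPs), 11 to the small subunit processome, 2 to late steps of the 40S subunit and 12 to assembly of the large subunit.

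Ribosomes are built in the nucleolus, where RNA polymerase I transcribes the rDNA repeats into a long precursor RNA. Box C/D and box H/ACA snoRNPs guide methylation and pseudouridylation of this precursor, the small subunit processome folds and cleaves its 18S part, and a separate set of factors assembles the large subunit around the remaining RNAs. Cells that grow and divide need new ribosomes, and Myc family proteins, among them Mycn in granule cell precursors exposed to sonic hedgehog (Shh), are known to bind the promoters of many of these genes.

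RNA came from cultured precursors of mouse cerebellar granule neurons, which divide in the young cerebellum with Shh as their main mitogen, and the series asks what Bmi1 does in their response to Shh. The groups were Bmi1 knockout (KO, Bmi-1-/-) cultures with Shh (2 arrays, numbered 8 and 10), wild type (WT) cultures with Shh (2 arrays, 7 and 9), KO cultures without Shh (3 arrays, 2, 4 and 6) and WT cultures without Shh (3 arrays, 1, 3 and 5), and Bmi1 is a subunit of Polycomb repressive complex PRC1. Cells of all groups came from pups of postnatal days 5 to 7 by the sample labels (day 7 by the series text) and were kept in medium with 10% fetal calf serum and 20 mM KCl for 24 hours, with Shh for 24 hours, at a concentration labelled 3 mg/ml, in the treated ones. The labels leave out how long untreated cultures were kept in all, how many animals made up a culture and which part of Bmi1 was deleted, so a p-value measures the spread between arrays only.

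Every array had a 2% trimmed mean signal of 500, and the median signal over all probe sets was 66.8 to 72.3 on Shh arrays and 84.8 to 91.2 on untreated arrays. Bmi1 signal lay between 3416 and 3904 on the 5 KO arrays, against 3673 to 4515 on the 5 WT arrays, and its probe set may lie outside the deleted part and so does not check the genotype. Cdkn2a, a locus that Bmi1 is known to repress, read 271 to 451 on KO arrays, against 24.0 to 41.6 on WT arrays. The treatment note of WT array 3 mentions Shh "if applicable", while its title names no Shh, and the array was placed with the untreated group. The 3' probe set of the 18S ribosomal RNA control read 6301 on untreated KO array 6 and 2030 on untreated WT array 1, against 219 to 649 on the other arrays. All 7 granule precursor markers were above the signal floor on all arrays.

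The first question was how these genes differed between Shh-treated and untreated cultures of each genotype. The untreated arrays are numbered 1 to 6 and the Shh arrays 7 to 10, and the full culture time of untreated cultures is not given. A change with Shh therefore cannot be told apart from one with array number or time in culture. With Shh, 6 of the 40 genes rose in KO cultures and 19 rose in WT cultures, and 0 fell in either (limma, adjusted p at or below 0.05 over all 11405 genes). Of all tested genes 17.0% fell in KO and 19.8% in WT cultures. The WT share of 47.5% stands beside 14.0% of all tested genes that rose in that comparison. The KO share of 15.0% is close to the 11.0% of all tested genes that rose there. All 6 genes that rose in KO cultures also rose in WT cultures, 13 rose in WT cultures without passing in KO cultures, and 21 passed in neither. A gene's error is shared by both comparisons.

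The log2 changes of the 40 genes ran from -0.14 to 0.77 with a median of 0.15 in KO cultures, and from 0.03 to 0.74 with a median of 0.29 in WT cultures, while the median of all tested genes was -0.01 in both. In KO cultures 34 of the 40 changes were above 0, against 49.4% of all tested genes, and in WT cultures all 40 were, against 48.6%. The Shh arrays lay wholly above the untreated arrays for 21 of the 40 genes in KO cultures, against 26.1% of all tested genes. In WT cultures they did so for 29 of the 40, against 27.3% of all tested genes. At an unadjusted p under 0.05, 12 genes passed in KO cultures and 23 in WT cultures, and all of them rose. Of all tested genes 39.8% passed in KO and 44.3% in WT cultures, but these shares also count genes that fell. Without array 8 the KO median was 0.094 and 4 genes passed at the unadjusted p, and without array 10 the KO median was 0.25, while the WT median lay between 0.29 and 0.32 whichever array was left out.

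Set against the untreated WT mean of each gene, the median of the 40 log2 deviations was 0.43 on array 8 and 0.25 on array 10 of Shh-treated KO cultures, and 0.30 on array 7 and 0.32 on array 9 of Shh-treated WT cultures. On the untreated KO arrays 2, 4 and 6 it was 0.14, 0.17 and 0.19. On the untreated WT arrays 1, 3 and 5 it was 0.06, -0.01 and -0.04. The 4 Shh arrays were thus the 4 highest, and the 3 untreated KO arrays lay between them and the untreated WT arrays.

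**Figure D1:**
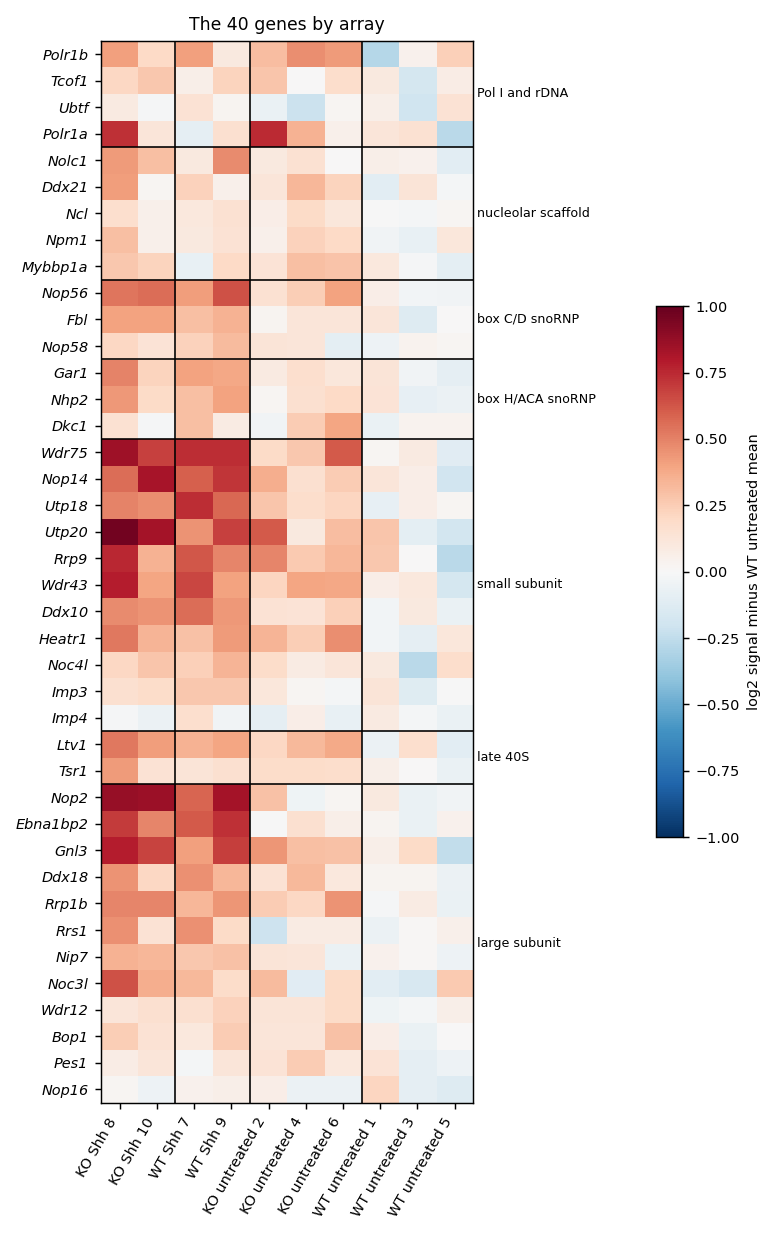
Log2 signal of the 40 genes on each of the 10 arrays minus the gene's mean over the 3 untreated WT arrays, genes grouped by role (horizontal lines) and arrays by group (vertical lines). Small and large subunit factors such as Wdr75, Nop14, Nop2, Ebna1bp2 and Gnl3 are darkest red on the Shh arrays, while RNA polymerase I and scaffold genes stay pale on most arrays, apart from values such as Polr1a on KO arrays 8 and 2.

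Markers of other cell types moved with Shh. The summed signal of 4 endothelial markers was 137 to 143 in Shh-treated KO cultures, 166 to 194 in Shh-treated WT cultures, 3128 to 3232 in untreated KO cultures and 2459 to 3614 in untreated WT cultures, and Pecam1 was at the signal floor on all Shh arrays. The ratio of mean summed signal, untreated over Shh, was 22.7 in KO and 17.2 in WT cultures for endothelium, 5.21 and 5.46 for 3 Purkinje cell markers, 5.03 and 3.54 for 5 fibroblast markers, 2.34 and 3.02 for 5 astrocyte markers, 2.95 and 2.87 for 5 microglial markers, and 1.68 and 2.33 for 6 oligodendrocyte lineage markers. By the test, both tested endothelial markers, all 3 Purkinje cell markers, 4 of 5 astrocyte, 3 of 4 tested fibroblast and 3 of 4 tested microglial markers fell in each genotype. Of 6 oligodendrocyte lineage markers, 3 fell and 1 rose in KO and 4 fell and 1 rose in WT cultures, of 4 GABAergic markers 2 fell in KO and 3 in WT cultures, and of 3 tested granule neuron markers 0 fell in KO and 2 in WT cultures. The fifth astrocyte marker, Gfap, rose in KO cultures. For the 7 granule precursor markers the ratio was 0.881 in KO and 0.888 in WT cultures, but 3 of them (Gli1, Ccnd2 and Mycn) are known Shh response genes. For the other 4 (Atoh1, Barhl1, Zic1 and Zic2), a split made after the values were seen, it was 1.05 in KO and 1.1 in WT cultures. The part of these shifts in the results on the 40 genes was not tested, and in bulk RNA fewer cells of a type and less RNA per cell cannot be told apart.

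Both counts moved when single arrays were left out. In KO cultures the count was 2 without array 4, 8 or 10 and 3 without array 6, 7 or 9, and in WT cultures it was 12 without array 3, 9 without array 5, 9 without array 7 and 7 without array 9. Without arrays 1 and 6 together, those with high 18S control signal, the counts were 3 in KO and 15 in WT cultures. With each array centred on its median the counts were 25 in KO and 39 in WT cultures, and the median of all genes then stood at 0.26 and 0.30. The distance of the 40 genes' median from that of all genes was 0.16 and 0.30, the same as with the deposited values. It could hardly change, because centring shifts every gene of an array alike. With the filter at the 75th percentile, which tested 35 of the 40 genes, the distance was 0.089 in KO and 0.24 in WT cultures. With quantile normalization it was 0.12 and 0.25.

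**Figure D2:**
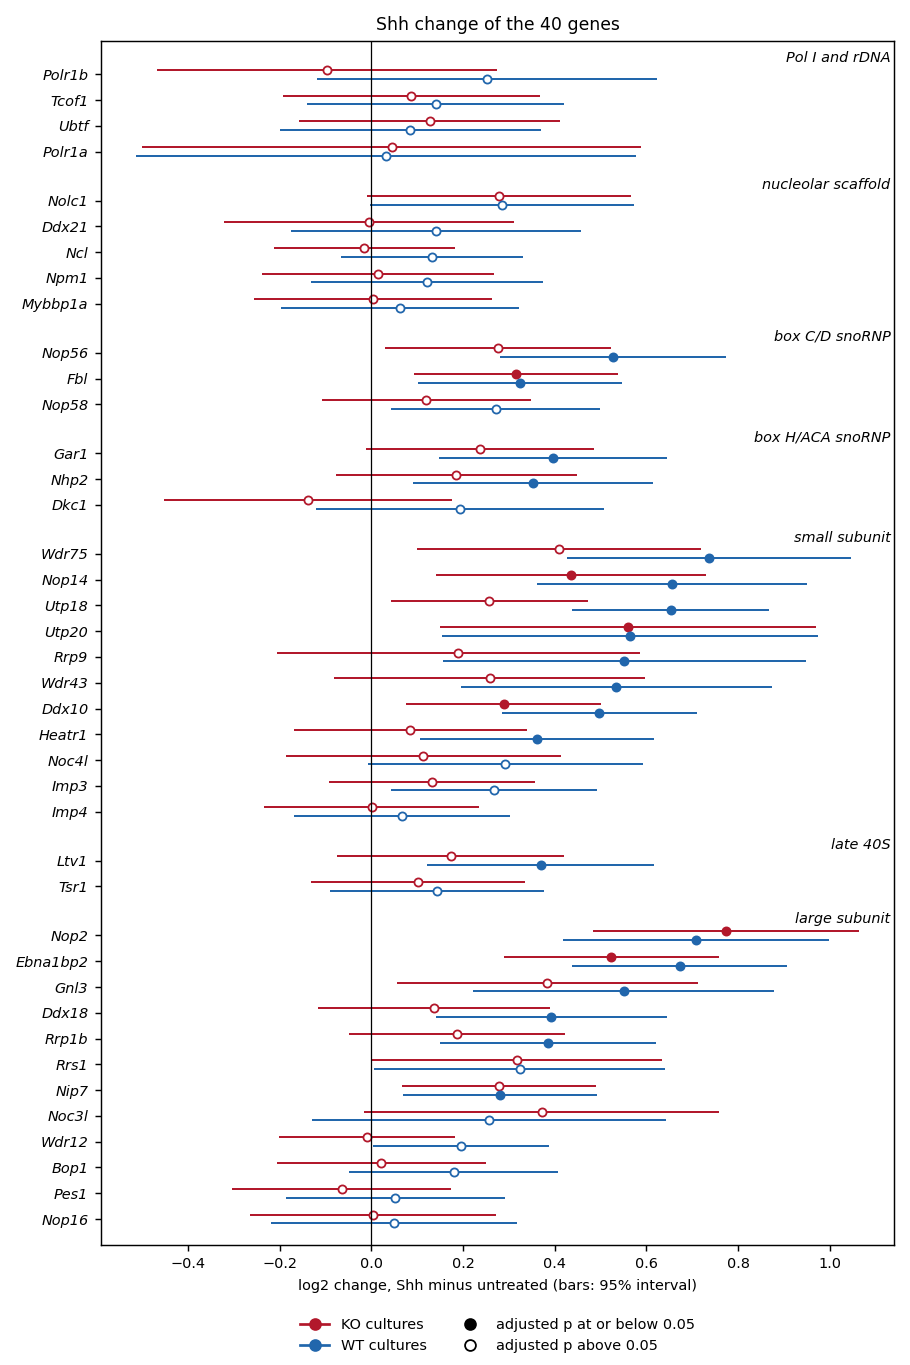
Log2 change with Shh, Shh minus untreated, of each of the 40 genes in KO (red) and WT (blue) cultures, with 95% intervals from limma and genes grouped by role. Filled points passed at an adjusted p of 0.05, which 6 did in KO and 19 in WT cultures.

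The 6 genes that rose in both genotypes were Nop2, Ebna1bp2, Utp20, Nop14, Ddx10 and Fbl. Nop2 is a methyltransferase of large subunit ribosomal RNA. Nop2 had signals of 869 and 856 in Shh-treated KO cultures, against 580.3, 459.7 and 481 in untreated KO cultures. In WT cultures Nop2 had 709 and 846 with Shh, against 508, 453 and 464 without. The Shh arrays of each genotype lay above all of its untreated arrays. The change was 1.71-fold (95% interval 1.40 to 2.09) in KO cultures, log2 0.77 (SE 0.13, limma adjusted p = 0.00228), and 1.63-fold (95% interval 1.34 to 1.99) in WT cultures, log2 0.71 (SE 0.13, limma adjusted p = 0.00287). Nop2 passed in both genotypes whichever array was left out.

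Ebna1bp2, the counterpart of the yeast large subunit factor Ebp2, was the brightest of the large subunit genes by its mean log2 signal. Ebna1bp2 had signals of 2864 and 2476 in Shh-treated KO cultures, against 1756, 1976 and 1834 in untreated KO cultures. In WT cultures Ebna1bp2 had 2705 and 2923 with Shh, against 1794, 1684 and 1818 without. The groups did not overlap in either genotype. For Ebna1bp2 the log2 change was 0.52 (SE 0.10, limma adjusted p = 0.00549) in KO cultures and 0.67 (SE 0.10, limma adjusted p = 0.00123) in WT cultures. The KO call was lost without array 8 (adjusted p = 0.0565), and with the mean of all its probe sets Ebna1bp2 did not pass in WT cultures (log2 0.45, adjusted p = 0.103).

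Utp20 is a large scaffold protein of the small subunit processome. Utp20 had signals of 713 and 651 in Shh-treated KO cultures, against 559, 389.9 and 453 in untreated KO cultures. In WT cultures Utp20 had 497 and 587 with Shh, against 442, 342 and 322 without. All Shh arrays lay above the untreated arrays of their genotype. For Utp20 the log2 change was 0.56 (SE 0.18, limma adjusted p = 0.046) in KO cultures and 0.56 (SE 0.18, limma adjusted p = 0.0386) in WT cultures. The KO call was lost without array 3, 4, 5, 6, 7, 8, 9 or 10 (adjusted p up to 0.207) and the WT call without array 3, 5, 6, 7, 8, 9 or 10 (adjusted p up to 0.217).

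Nop14, which in yeast works in a complex with Noc4 during 18S maturation, showed no overlap between Shh and untreated arrays. Nop14 had signals of 652 and 784 in Shh-treated KO cultures, against 568, 494 and 528 in untreated KO cultures. In WT cultures Nop14 had 670.0 and 724 with Shh, against 481, 463 and 387 without. For Nop14 the log2 change was 0.44 (SE 0.13, limma adjusted p = 0.0342) in KO cultures, where the call was lost without array 4, 6 or 10 (adjusted p up to 0.226), and 0.66 (SE 0.13, limma adjusted p = 0.00455) in WT cultures.

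Ddx10 encodes a DEAD-box RNA helicase, known as Dbp4 in yeast. Ddx10 had signals of 921 and 906 in Shh-treated KO cultures, against 733, 729.7 and 782 in untreated KO cultures. In WT cultures Ddx10 had 977 and 896 with Shh, against 651, 709 and 632 without. Its groups did not overlap in either genotype. For Ddx10 the log2 change was 0.29 (SE 0.09, limma adjusted p = 0.0459) in KO cultures and 0.50 (SE 0.09, limma adjusted p = 0.00348) in WT cultures. A dimmer probe set of Ddx10 had the larger change in KO cultures, 0.42 against 0.10 in WT cultures. The KO call held without array 3 and was lost without array 1, 2, 4, 5, 6, 7, 8, 9 or 10 (adjusted p up to 0.179), and it was also lost with consecutive array numbers as a block (adjusted p = 0.0522).

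Fbl encodes fibrillarin, the methyltransferase of box C/D snoRNPs. Fbl had signals of 7381 and 7386 in Shh-treated KO cultures, against 5695, 6059 and 6055 in untreated KO cultures. In WT cultures Fbl had 6881 and 7076 with Shh, against 6075, 5104 and 5585 without. Both Shh arrays of each genotype were above all of its untreated arrays, and the 2 KO Shh arrays were almost equal. For Fbl the log2 change was 0.32 (SE 0.10, limma adjusted p = 0.0388) in KO cultures and 0.32 (SE 0.10, limma adjusted p = 0.0302) in WT cultures. The KO call was lost without array 2, 4, 5, 6, 7, 8, 9 or 10 (adjusted p up to 0.147) and the WT call without array 3, 5, 7 or 9 (adjusted p up to 0.145). Its second probe set stood at 0.23 in KO and 0.40 in WT cultures, and the brighter one is of the array's kind that is shared by several transcripts. The probe sets used for Nop56, Gar1, Nhp2, Wdr43 and Tsr1 are of the same kind.

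**Figure D3:**
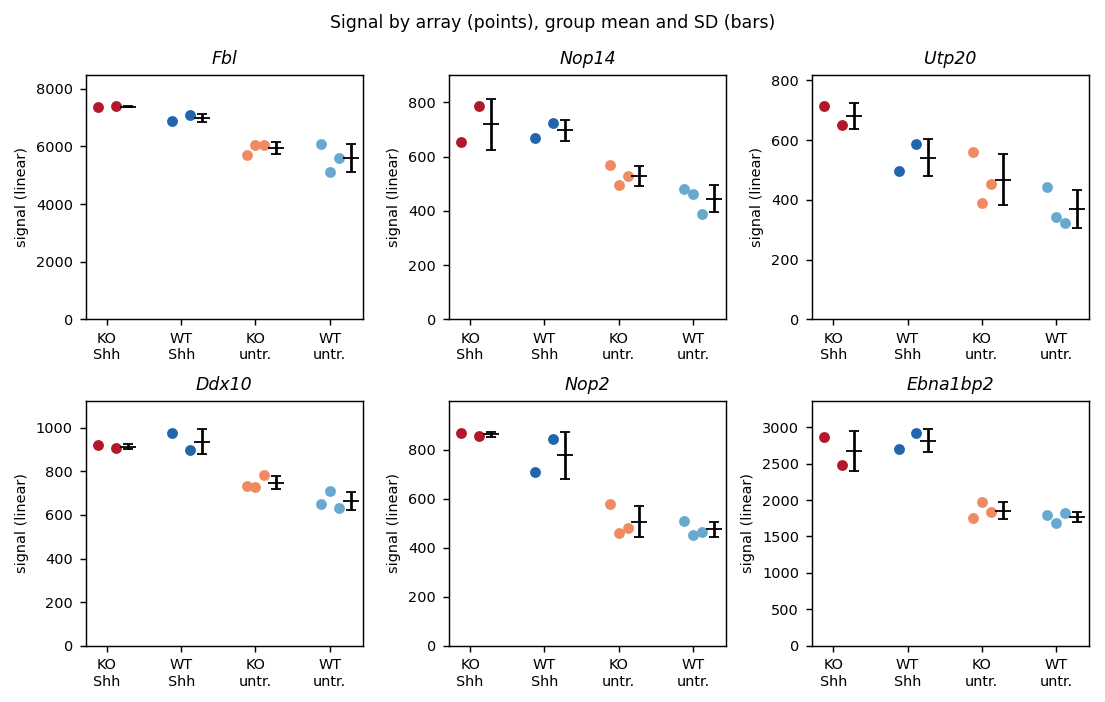
Signal (linear scale) of the 6 genes that rose with Shh in both genotypes. Points are arrays, and black bars beside them give the group mean and SD (n = 2 for Shh groups, 3 for untreated groups). In each panel the Shh points of a genotype lie above its untreated points.

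The promoters of 4 of these genes are printed because the genes changed in both genotypes, 2 of them with and 2 without the letters CACGTG, the E-box to which Myc and Max are known to bind. Each window runs from 250 bases before to 50 bases after the annotated start in RefSeq's annotation of GRCm38.p6, 5′ to 3′ on the gene's strand, and CACGTG is in capitals.
Nop2, chr6:125131633-125131932 (+): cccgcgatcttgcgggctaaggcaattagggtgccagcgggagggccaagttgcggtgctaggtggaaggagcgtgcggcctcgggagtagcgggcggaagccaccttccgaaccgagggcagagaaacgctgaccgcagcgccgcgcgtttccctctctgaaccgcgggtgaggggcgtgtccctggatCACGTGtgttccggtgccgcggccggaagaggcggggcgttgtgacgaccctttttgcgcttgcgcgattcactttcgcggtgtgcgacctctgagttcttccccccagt
Utp20, chr10:88826765-88827064 (-): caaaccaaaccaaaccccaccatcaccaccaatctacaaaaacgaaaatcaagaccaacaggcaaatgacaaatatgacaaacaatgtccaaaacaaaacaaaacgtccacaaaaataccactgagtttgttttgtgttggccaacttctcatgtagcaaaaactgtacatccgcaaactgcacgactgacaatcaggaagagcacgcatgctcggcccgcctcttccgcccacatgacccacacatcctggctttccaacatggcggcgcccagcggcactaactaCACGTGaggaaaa
Ebna1bp2, chr4:118620549-118620848 (+): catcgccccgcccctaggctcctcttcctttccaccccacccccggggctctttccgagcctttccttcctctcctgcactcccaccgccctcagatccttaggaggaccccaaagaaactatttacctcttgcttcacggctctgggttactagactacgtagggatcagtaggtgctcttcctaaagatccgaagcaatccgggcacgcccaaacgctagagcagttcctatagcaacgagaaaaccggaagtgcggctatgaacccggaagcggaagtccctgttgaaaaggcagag
Nop14, chr5:34660099-34660398 (-): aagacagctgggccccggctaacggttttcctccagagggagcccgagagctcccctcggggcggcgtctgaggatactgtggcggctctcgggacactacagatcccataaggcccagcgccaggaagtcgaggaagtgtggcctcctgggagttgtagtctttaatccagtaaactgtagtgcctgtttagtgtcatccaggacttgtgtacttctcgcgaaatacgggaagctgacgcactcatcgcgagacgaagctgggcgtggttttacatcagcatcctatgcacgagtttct

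CACGTG began at position -60 of Nop2 and 38 of Utp20, counted from the start. Of the 40 genes, 35 had a promoter in the table, and 9 of these held CACGTG on either strand (the motif reads the same on both), which is 25.7%, against 11.9% of 9267 tested genes and 8.09% of 27025 genes with a promoter. The 9 were Nop2, Utp20, Utp18, Wdr43, Ltv1, Imp4, Pes1, Mybbp1a and Tsr1. It was present in 5 of the 18 that rose with Shh in WT cultures and had a promoter in the table (27.8%), and in 4 of the other 17 (23.5%). The 40 genes were listed as typical Myc family targets, so the comparison with all genes is not separate from how they were picked. A match is a description of these letters and shows neither binding nor use.

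Of the 11 small subunit processome genes, 3 rose with Shh in KO cultures and 8 in WT cultures, with median log2 changes of 0.26 and 0.53. These shares of 27.3% and 72.7% stand beside 11.0% and 14.0% of all tested genes. Wdr75, a member of the subcomplex that also acts in rDNA transcription, had the largest WT change of the 40 genes. Wdr75 had signals of 1127 and 1004 in Shh-treated KO cultures, against 712, 753 and 956 in untreated KO cultures. In WT cultures Wdr75 had 1042 and 1040.1 with Shh, against 633, 666 and 578 without. The lowest Shh array was above the highest untreated array of either genotype. For Wdr75 the log2 change was 0.41 (SE 0.14, limma adjusted p = 0.0515) in KO cultures, which did not pass, and 0.74 (SE 0.14, limma adjusted p = 0.00328) in WT cultures. A dimmer second probe set of Wdr75 stood at -0.34 in KO and -0.62 in WT cultures, and with the mean of all its probe sets the WT change was 0.058 and did not pass (adjusted p = 0.735).

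Utp18, a WD40-repeat protein of the processome, rose in WT cultures alone by the test. Utp18 had signals of 889 and 867 in Shh-treated KO cultures, against 761, 711 and 732 in untreated KO cultures. In WT cultures Utp18 had 1047 and 935 with Shh, against 593, 657 and 639 without. The Shh arrays were higher than the untreated ones in both genotypes. For Utp18 the log2 change was 0.26 (SE 0.09, limma adjusted p = 0.0705) in KO cultures and 0.65 (SE 0.09, limma adjusted p = 0.000897) in WT cultures, and the WT call held whichever array was left out. The difference between the 2 changes did not pass, at log2 -0.40 (SE 0.13, limma adjusted p = 0.842).

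Rrp9 is the protein specific to the U3 snoRNP, which base-pairs with the precursor RNA. Rrp9 had signals of 647 and 486 in Shh-treated KO cultures, against 536, 459 and 483 in untreated KO cultures. In WT cultures Rrp9 had 587 and 536 with Shh, against 461, 383 and 317 without. In KO cultures the groups overlapped, and in WT cultures they did not. For Rrp9 the log2 change was 0.19 (SE 0.17, limma adjusted p = 0.458) in KO and 0.55 (SE 0.17, limma adjusted p = 0.0371) in WT cultures, where the call was lost without array 3, 5, 6, 7 or 9 (adjusted p up to 0.169).

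Wdr43, which belongs to the same subcomplex as Wdr75, followed. Wdr43 had signals of 1320.0 and 1007 in Shh-treated KO cultures, against 889, 1006 and 1003 in untreated KO cultures. In WT cultures Wdr43 had 1219 and 1013 with Shh, against 804, 825 and 681 without. The lower KO Shh array exceeded the highest untreated KO array only narrowly, while the WT groups stood well apart. For Wdr43 the log2 change was 0.26 (SE 0.15, limma adjusted p = 0.235) in KO cultures and 0.53 (SE 0.15, limma adjusted p = 0.0227) in WT cultures, where the call was lost without array 5 or 7 (adjusted p up to 0.159).

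Heatr1, another member of that subcomplex, rose in WT cultures. Heatr1 had signals of 1226 and 1078 in Shh-treated KO cultures, against 1076, 1007 and 1174 in untreated KO cultures. In WT cultures Heatr1 had 1044 and 1143 with Shh, against 836, 801 and 919 without. The KO groups overlapped, since untreated KO array 6 lay between the 2 Shh arrays. For Heatr1 the log2 change was 0.09 (SE 0.11, limma adjusted p = 0.613) in KO and 0.36 (SE 0.11, limma adjusted p = 0.0342) in WT cultures, where the call was lost without array 1, 3, 7 or 9 (adjusted p up to 0.196). A dimmer probe set stood at -0.21 in KO and -0.61 in WT cultures.

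Imp3, which with Imp4 holds the U3 RNA to the precursor, was the brightest processome gene by its mean log2 signal. Imp3 had signals of 2067 and 2099 in Shh-treated KO cultures, against 2001, 1877 and 1829 in untreated KO cultures. In WT cultures Imp3 had 2229 and 2226 with Shh, against 2018, 1700.1 and 1846 without. The groups did not overlap. For Imp3 the log2 change was 0.13 (SE 0.10, limma adjusted p = 0.356) in KO cultures and 0.27 (SE 0.10, limma adjusted p = 0.0636) in WT cultures, and neither passed. Imp4 stood at 0.00 in KO and 0.07 in WT cultures, and Noc4l, the counterpart of yeast Noc4, at 0.11 and 0.29, with adjusted p of 0.565 and 0.12. Dimmer probe sets of Imp4 stood at 0.30 and -0.42 in KO and at -0.03 and -0.78 in WT cultures.

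In KO cultures 0 of the 2 late 40S factors passed, where 11.0% of all tested genes rose. In WT cultures 1 rose, against 14.0% of all tested genes. This was Ltv1, a factor of the exported 40S precursor in yeast. Ltv1 had signals of 1246 and 1155 in Shh-treated KO cultures, against 997, 1080.0 and 1119.9 in untreated KO cultures. In WT cultures Ltv1 had 1097 and 1131 with Shh, against 826, 968 and 802 without. The Shh arrays were above the untreated arrays in each genotype. For Ltv1 the log2 change was 0.17 (SE 0.11, limma adjusted p = 0.276) in KO and 0.37 (SE 0.11, limma adjusted p = 0.0284) in WT cultures, and the WT call was lost without array 1, 5, 7 or 9 (adjusted p up to 0.136). Tsr1 had signals of 1641 and 1348 in Shh-treated KO cultures, against 1392, 1388 and 1378 in untreated KO cultures. In WT cultures Tsr1 had 1334 and 1367 with Shh, against 1274, 1229 and 1168 without. Tsr1, which keeps the 40S precursor from engaging early, stood at log2 0.10 in KO and 0.14 in WT cultures, passing in neither (limma adjusted p = 0.499 and 0.315).

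Among the box C/D proteins, Fbl rose in KO cultures, and Fbl and Nop56 rose in WT cultures. These are shares of 33.3% and 66.7% of only 3 genes, against 11.0% and 14.0% of all tested genes. Nop56 is a core scaffold protein of box C/D particles. Nop56 had signals of 4399.5 and 4483 in Shh-treated KO cultures, against 3387, 3610.2 and 4027 in untreated KO cultures. In WT cultures Nop56 had 4061 and 4725 with Shh, against 3176, 2988 and 2959.8 without. The lower KO Shh array was above the highest untreated KO array, and the WT groups lay further apart. For Nop56 the log2 change was 0.28 (SE 0.11, limma adjusted p = 0.0877) in KO cultures and 0.53 (SE 0.11, limma adjusted p = 0.00557) in WT cultures, the WT call being lost without array 9 (adjusted p = 0.0589). Nop58, its partner in the core, stood at 0.12 (SE 0.10, limma adjusted p = 0.412) in KO and 0.27 (SE 0.10, limma adjusted p = 0.0643) in WT cultures and did not pass.

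Of the 3 box H/ACA proteins, 0 passed in KO cultures and 2 rose in WT cultures. Of all tested genes 11.0% rose in KO and 14.0% in WT cultures, so 0 of 3 in KO cultures is near the background. Gar1 had signals of 2905 and 2409 in Shh-treated KO cultures, against 2194, 2315 and 2228 in untreated KO cultures. In WT cultures Gar1 had 2731 and 2694 with Shh, against 2249, 2006 and 1939.5 without. For Gar1, a small core protein, the Shh arrays exceeded all untreated arrays of their genotype. For Gar1 the log2 change was 0.24 (SE 0.11, limma adjusted p = 0.141) in KO and 0.40 (SE 0.11, limma adjusted p = 0.0216) in WT cultures, where the call was lost without array 3, 5, 7 or 9 (adjusted p up to 0.0979).

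Nhp2, which binds the H/ACA guide RNA, was the brightest of the 3 by its mean log2 signal. Nhp2 had signals of 7134 and 6056 in Shh-treated KO cultures, against 5378, 5913 and 6069.9 in untreated KO cultures. In WT cultures Nhp2 had 6522 and 7001 with Shh, against 5826, 5013 and 5079 without. Untreated KO array 6 exceeded Shh array 10, and the WT groups did not overlap. For Nhp2 the log2 change was 0.19 (SE 0.12, limma adjusted p = 0.267) in KO and 0.35 (SE 0.12, limma adjusted p = 0.0418) in WT cultures. The WT call was lost without array 3, 4, 5, 6, 7 or 9 (adjusted p up to 0.206) and with consecutive array numbers as a block (adjusted p = 0.0586). Dkc1, the pseudouridine synthase, stood at -0.14 (SE 0.14, limma adjusted p = 0.5) in KO and 0.19 (SE 0.14, limma adjusted p = 0.312) in WT cultures.

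Of the 12 large subunit genes, 2 rose in KO cultures (Nop2 and Ebna1bp2) and 6 in WT cultures, with median log2 changes of 0.23 and 0.30. Gnl3, or nucleostemin, is a nucleolar GTPase named for its abundance in stem cells. Gnl3 had signals of 2073 and 1916 in Shh-treated KO cultures, against 1631, 1483 and 1475 in untreated KO cultures. In WT cultures Gnl3 had 1597 and 1939 with Shh, against 1248, 1376 and 1011 without. Shh arrays were the highest in both genotypes. For Gnl3 the log2 change was 0.38 (SE 0.14, limma adjusted p = 0.0783) in KO cultures and 0.55 (SE 0.14, limma adjusted p = 0.0174) in WT cultures, where the call was lost without array 9 (adjusted p = 0.142).

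Rrp1b, a counterpart of yeast Rrp1, rose in WT cultures. Rrp1b had signals of 645 and 644 in Shh-treated KO cultures, against 548, 530.1 and 626 in untreated KO cultures. In WT cultures Rrp1b had 576 and 623 with Shh, against 454, 486 and 438 without. The groups did not overlap, although array 6 lay near the Shh arrays. For Rrp1b the log2 change was 0.19 (SE 0.10, limma adjusted p = 0.214) in KO and 0.39 (SE 0.10, limma adjusted p = 0.0191) in WT cultures, where the call was lost without array 5, 7 or 9 (adjusted p up to 0.129). Its 2 dimmer probe sets stood at -0.13 and -0.22 in KO and at -0.25 and -0.54 in WT cultures.

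Ddx18, a helicase known as Has1 in yeast, had log2 changes of 0.14 (SE 0.11, limma adjusted p = 0.397) in KO and 0.39 (SE 0.11, limma adjusted p = 0.0237) in WT cultures. The WT call was lost without array 5, 7 or 9 (adjusted p up to 0.143), and its other probe sets stood at 0.45 and -0.25 in WT cultures, where the mean of all did not pass (0.20, adjusted p = 0.355). Nip7, a large subunit factor in yeast, had 0.28 (SE 0.09, limma adjusted p = 0.0523) in KO and 0.28 (SE 0.09, limma adjusted p = 0.0441) in WT cultures, a WT call that held without array 6 and was lost without array 1, 2, 3, 4, 5, 7, 8, 9 or 10 (adjusted p up to 0.174). Its second probe set stood at -0.47 in KO and -0.60 in WT cultures.

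The other 6 large subunit genes passed in neither genotype. Rrs1, which in yeast helps bring 5S RNA into the subunit, stood at 0.32 in KO and 0.32 in WT cultures, with limma adjusted p of 0.124 and 0.105. Noc3l, the dimmest of the 40 genes by mean log2 signal, stood at 0.37 and 0.26. The members of the PeBoW complex, which is needed for processing of the large subunit RNAs, followed, with Pes1 at -0.06 in KO and 0.05 in WT cultures, Bop1 at 0.02 and 0.18, and Wdr12 at -0.01 and 0.20. A dimmer probe set of Pes1 stood at 0.38 in KO and 0.60 in WT cultures, and one of Wdr12 at -0.13 and -0.12. Nop16 stood at 0.00 in KO and 0.05 in WT cultures.

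Of the 4 RNA polymerase I and rDNA genes 0 passed with Shh in either genotype by limma, and of the 5 scaffold genes 0 passed, with 0 of either at an unadjusted p under 0.05, but with arrays centred on their medians 1 of 4 and 1 of 5 passed in KO cultures and 3 of 4 and 5 of 5 in WT cultures. Of all tested genes 11.0% rose in KO and 14.0% in WT cultures, so counts of 0 among 4 or 5 genes are near the background. The median log2 change was 0.07 in KO and 0.11 in WT cultures for the rDNA genes, and 0.00 and 0.13 for the scaffold genes. Ubtf, the factor that opens rDNA chromatin, was the brightest of the rDNA genes by its mean log2 signal. Ubtf had signals of 1712 and 1592 in Shh-treated KO cultures, against 1533, 1387 and 1626 in untreated KO cultures. In WT cultures Ubtf had 1773 and 1636 with Shh, against 1673, 1395 and 1773 without. The groups overlapped in both genotypes. For Ubtf the log2 change was 0.13 (SE 0.12, limma adjusted p = 0.49) in KO and 0.09 (SE 0.12, limma adjusted p = 0.636) in WT cultures.

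Polr1a, the largest subunit of RNA polymerase I, varied widely within groups. Polr1a had signals of 628 and 413 in Shh-treated KO cultures, against 636, 481 and 394 in untreated KO cultures. In WT cultures Polr1a had 356 and 423 with Shh, against 412, 421 and 315 without. Arrays 8 and 2, both KO, were the highest. For Polr1a the log2 change was 0.04 in KO cultures (95% interval -0.50 to 0.59) and 0.03 in WT cultures (-0.51 to 0.57). Its next brightest probe set stood at -0.50 in KO and -0.87 in WT cultures. Polr1b, the second subunit, stood at -0.10 and 0.25, and Tcof1, the treacle protein of rDNA transcription, at 0.09 and 0.14. Further probe sets of Tcof1, close in brightness, stood at 0.07 and -0.17 in KO and at 0.49 and 0.22 in WT cultures.

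Npm1, nucleophosmin, had the brightest probe set of the 40 by mean log2 signal. Npm1 had signals of 15754 and 13291 in Shh-treated KO cultures, against 13269, 15039 and 14732 in untreated KO cultures. In WT cultures Npm1 had 13721 and 14152 with Shh, against 12499.6, 12139 and 13848 without. The groups overlapped in each genotype. For Npm1 the log2 change was 0.01 in KO cultures (95% interval -0.24 to 0.27) and 0.12 in WT cultures (-0.13 to 0.37). Ncl, nucleolin, stood at -0.02 (-0.21 to 0.18) in KO and 0.13 (-0.06 to 0.33) in WT cultures. Nolc1, a chaperone of snoRNPs, stood at 0.28 (SE 0.13, limma adjusted p = 0.136) and 0.28 (SE 0.13, limma adjusted p = 0.114), the helicase Ddx21 at -0.01 and 0.14, and Mybbp1a at 0.00 and 0.06 in KO and WT cultures. Dimmer probe sets of these genes varied. That of Mybbp1a stood at 0.27 in KO and 0.29 in WT cultures, and that of Ddx21 at -0.16 and 0.11. Those of Nolc1 stood at -0.03 and 0.05 in KO and at 0.05 and 0.29 in WT cultures.

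Probe sets of 1 gene did not always have the same sign. The 40 genes had 87 probe sets, and 10 genes had 1. Beside the brightest ones, 37 probe sets of 26 genes were above the brightness filter, and 24 of these 37 had a mean Shh difference above 0 in WT cultures. Of the 19 genes that rose in WT cultures, 10 had 12 further probe sets above the brightness filter, of which 6 had a mean Shh difference above 0 and 6 below it. For the 6 genes that rose in KO cultures there were 2 such probe sets, both above 0.

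Lists of related genes, outside the 40, were set beside them. Of 36 other small subunit factors tested, 8 rose and 0 fell in KO cultures and 11 rose and 2 fell in WT cultures, with median log2 changes of 0.14 and 0.29. In KO cultures 11.0% and in WT cultures 14.0% of all tested genes rose, and 17.0% and 19.8% fell. Of 44 other large subunit factors, 7 rose and 0 fell in KO cultures and 12 rose and 1 fell in WT cultures (medians 0.09 and 0.23), a KO share of 15.9%. Urb2 had log2 changes of 0.84 in KO and 0.97 in WT cultures, Mak16 0.57 and 0.71, and the 60S export adaptor Nmd3 0.52 and 0.69, and all 3 rose in both. Of 23 exosome, RNase P and snoRNP assembly genes, 4 rose in KO and 9 in WT cultures and 0 fell, with the exosome cap protein Exosc3 at 0.72 (SE 0.10, limma adjusted p = 0.0011) in KO and 0.81 (SE 0.10, limma adjusted p = 0.000452) in WT cultures.

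Of 13 genes listed as other RNA polymerase I factors, 1 rose in KO cultures, and 2 rose and 1 fell in WT cultures. The KO gene was Ttf2, at 0.33 (SE 0.11, limma adjusted p = 0.0461), which also rose in WT cultures and is known as a termination factor of RNA polymerase II, so that 0 of the other 12 rose in KO cultures. The gene that fell in WT cultures was Ttf1, which terminates rDNA transcription, at -0.71 (SE 0.19, limma adjusted p = 0.0172). Of the 79 cytosolic ribosomal protein genes listed, 43 were tested, 0 rose and 2 fell in KO cultures and 1 rose and 1 fell in WT cultures, with medians of 0.02 and 0.07. Many of these genes have near-identical copies that the probes could share, so these values are uncertain. Of 77 mitochondrial ribosomal protein genes, 10 rose and 1 fell in KO cultures and 17 rose and 0 fell in WT cultures (medians 0.11 and 0.19). The KO share of risen genes, 13.0%, is close to the 11.0% of all tested genes.

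In the Myc network, 3 of 13 genes rose and 1 fell in KO cultures, and 5 rose and 0 fell in WT cultures. Mycn, a known Shh target, had signals of 5658 and 5101 in Shh-treated KO cultures, against 3169, 4325 and 3991 in untreated ones, and 5717 and 5289.8 in Shh-treated WT cultures, against 3564, 3805 and 3918 in untreated ones. The groups did not overlap, and Mycn rose by log2 0.50 (SE 0.14, limma adjusted p = 0.0237) in KO and 0.55 (SE 0.14, limma adjusted p = 0.0133) in WT cultures. Myc stood at -0.22 (SE 0.20, limma adjusted p = 0.465) in KO and -0.32 (SE 0.20, limma adjusted p = 0.252) in WT cultures and did not pass. Mxd3, a Max partner, rose by 0.48 in KO and 0.84 in WT cultures, Mlx by 0.85 and 0.71, and Max stood at 0.51 in KO cultures, where it did not pass, and rose by 0.66 in WT cultures.

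Of 27 other known Myc targets, 4 rose and 1 fell in KO cultures, a risen share of 14.8% that is close to that of all genes, and 9 rose and 1 fell in WT cultures. The purine synthesis enzyme Ppat rose by 0.52 in KO and 0.61 in WT cultures. Odc1, the first enzyme of polyamine synthesis, was the one that fell in KO cultures, at -0.46 (SE 0.11, limma adjusted p = 0.0146). Of 15 genes of dividing cells, 8 rose in KO and 12 in WT cultures and 0 fell (medians 0.36 and 0.48), with Cdk1 at 0.89 (SE 0.10, limma adjusted p = 0.000411) in KO and 1.16 (SE 0.10, limma adjusted p = 6.7e-05) in WT cultures. Of 7 genes listed for the Shh pathway, 4 rose in each genotype, among them Gli1 (0.57 in KO and 1.05 in WT cultures) and Ptch1 (0.92 and 0.98). The 7 include Smo, a component of the pathway, and Mycn, which was also counted in the Myc network. These lists moved on the same arrays as the 40 genes, and their part in one another's changes was not tested.

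**Figure D4:**
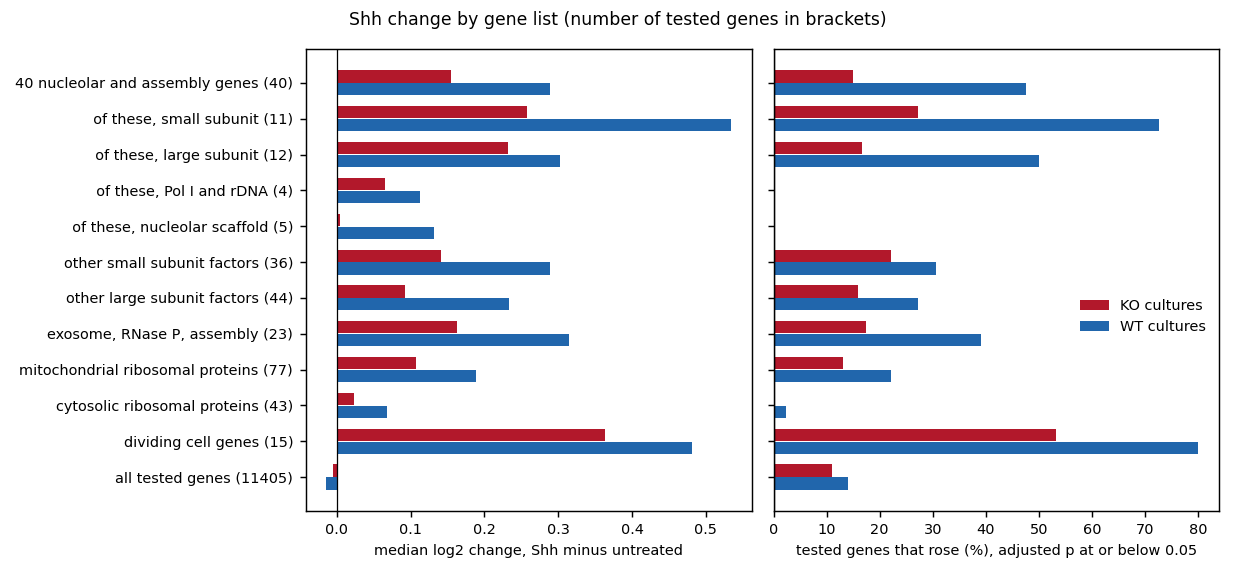
Median log2 change with Shh (left) and share of tested genes that rose at an adjusted p of 0.05 (right) for the 40 genes, some of their role groups and other lists, in KO (red) and WT (blue) cultures, with the number of tested genes in brackets. The 40 genes have medians of 0.15 and 0.29, cytosolic ribosomal proteins 0.02 and 0.07, and all tested genes -0.01 in both.

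The second question was whether the 40 genes differed between KO and WT cultures. In untreated cultures 0 of 40 passed (limma, adjusted p at or below 0.05), against 0.377% of all tested genes. At an unadjusted p under 0.05, 11 passed, all of them higher in KO cultures, against 8.68% of all tested genes in either direction. The log2 differences, KO minus WT, ran from -0.09 to 0.40 with a median of 0.17, where the median of all tested genes was 0.02. They were above 0 for 36 of the 40 genes, against 55.6% of all tested genes, and KO arrays lay wholly above WT arrays for 17 genes, against 7.63%. They lay wholly below for 0 genes, against 5.73%. These values come from the brightest probe sets, and further ones of the same gene did not always share the sign. For Ncl, among the 17 genes, further probe sets above the brightness filter stood at -0.02, -0.03, -0.04 and -0.63. For Nop56, also among the 17, the further one stood at 0.23. With the mean of all probe sets, which tested 39 of the 40 genes, the median was 0.14 and 8 passed at the unadjusted p. The count at the unadjusted p was 4 without array 5, 5 without array 6 and 4 without arrays 1 and 6 together, where the median was 0.18. None of the markers of other cell types passed in this comparison. Their summed signal lay apart between the genotypes for GABAergic interneurons, 4464 to 5789 in untreated KO and 2714 to 4295 in untreated WT cultures, and for microglia, 3469 to 4036 in untreated KO and 4424 to 6530.0 in untreated WT cultures, and their part in the result was not tested.

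The 4 genes with the smallest p were Heatr1, Rrp1b, Ltv1 and Wdr75. Heatr1 had signals of 1076, 1007 and 1174 in untreated KO cultures, against 836, 801 and 919 in untreated WT cultures, a log2 difference of 0.35 (SE 0.10, limma adjusted p = 0.315). Rrp1b had 548, 530.1 and 626 in KO, against 454, 486 and 438 in WT cultures, a difference of 0.30 (SE 0.09, limma adjusted p = 0.33). For both genes every untreated KO array was above every untreated WT array, and the same held for Ltv1 and Wdr75. Ltv1 had 997, 1080.0 and 1119.9 in KO, against 826, 968 and 802 in WT cultures, with a difference of 0.30 (SE 0.10, limma adjusted p = 0.367). Wdr75 had 712, 753 and 956 in KO, against 633, 666 and 578 in WT cultures, with a difference of 0.36 (SE 0.12, limma adjusted p = 0.421). Further probe sets above the brightness filter stood at 0.14 for Heatr1, at -0.13 and 0.24 for Rrp1b and at 0.22 for Wdr75.

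The largest untreated differences, which did not pass, were those of Polr1b, 0.40 (SE 0.15, limma adjusted p = 0.452), Polr1a, 0.38 (SE 0.21, limma adjusted p = 0.719), and Rrp9, 0.36 (SE 0.16, limma adjusted p = 0.558). The 4 genes below 0 were Ubtf at -0.09, Imp4 at -0.03, Nop16 at -0.02 and Rrs1 at -0.02. With consecutive array numbers set side by side, the KO array was the higher one for 30 of 40 genes (arrays 2 and 1), 39 (4 and 3) and 33 (6 and 5), against 51.7%, 52.4% and 56.0% of all tested genes. It was higher in all 3 pairs for 26 of the 40 genes, against 19.4% of all tested genes. Of the 6 untreated arrays, a KO array held the highest value for 35 of the 40 genes, spread as 13, 12 and 10 over arrays 2, 4 and 6, against 53.6% of all tested genes. A WT array held the lowest for 35, against 54.9%.

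With Shh, 0 of 40 genes passed between KO and WT cultures, against 0.728% of all tested genes, and 0 had an unadjusted p under 0.05, against 9.76%. The median log2 difference was 0.03, and 23 of the 40 were above 0, against 53.5% of all tested genes. The sign of this median rested on 1 array, since it was -0.04 without array 8 and 0.08 without array 10, and it was 0.014 without array 7 and 0.020 without array 9. KO arrays lay wholly above WT arrays for 8 genes, against 22.3% of all tested genes, and wholly below for 5, against 16.9%. The KO array was higher for 27 genes between arrays 8 and 7, against 53.0% of all tested genes, and for 12 between arrays 10 and 9, against 54.0%. The 95% intervals of the 40 genes reached as far as -0.47 below and 0.99 above 0. Among markers of other cell types, 3 of 6 oligodendrocyte lineage, 1 of 5 astrocyte and 1 of 4 GABAergic genes were higher by the test in Shh-treated KO cultures than in Shh-treated WT cultures, and 1 of 4 tested microglial genes was lower, and the part of this in the result was not tested.

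The 4 smallest p with Shh were those of Utp20, Utp18, Polr1a and Mybbp1a. Utp20 had 713 and 651 in Shh-treated KO, against 497 and 587 in Shh-treated WT cultures, a difference of 0.34 (SE 0.20, limma adjusted p = 0.674). Utp18 had 889 and 867 in KO, against 1047 and 935 in WT cultures, a difference of -0.17 (SE 0.10, limma adjusted p = 0.676). The arrays of the 2 genotypes did not overlap for either gene, with Utp20 higher and Utp18 lower in KO cultures. Polr1a had 628 and 413 in KO, against 356 and 423 in WT cultures, a difference of 0.39 (SE 0.26, limma adjusted p = 0.745). Mybbp1a had 2688 and 2603 in KO, against 2121 and 2571 in WT cultures, a difference of 0.18 (SE 0.12, limma adjusted p = 0.762). Polr1a arrays overlapped between the genotypes, and those of Mybbp1a were all higher in KO cultures.

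**Figure D5:**
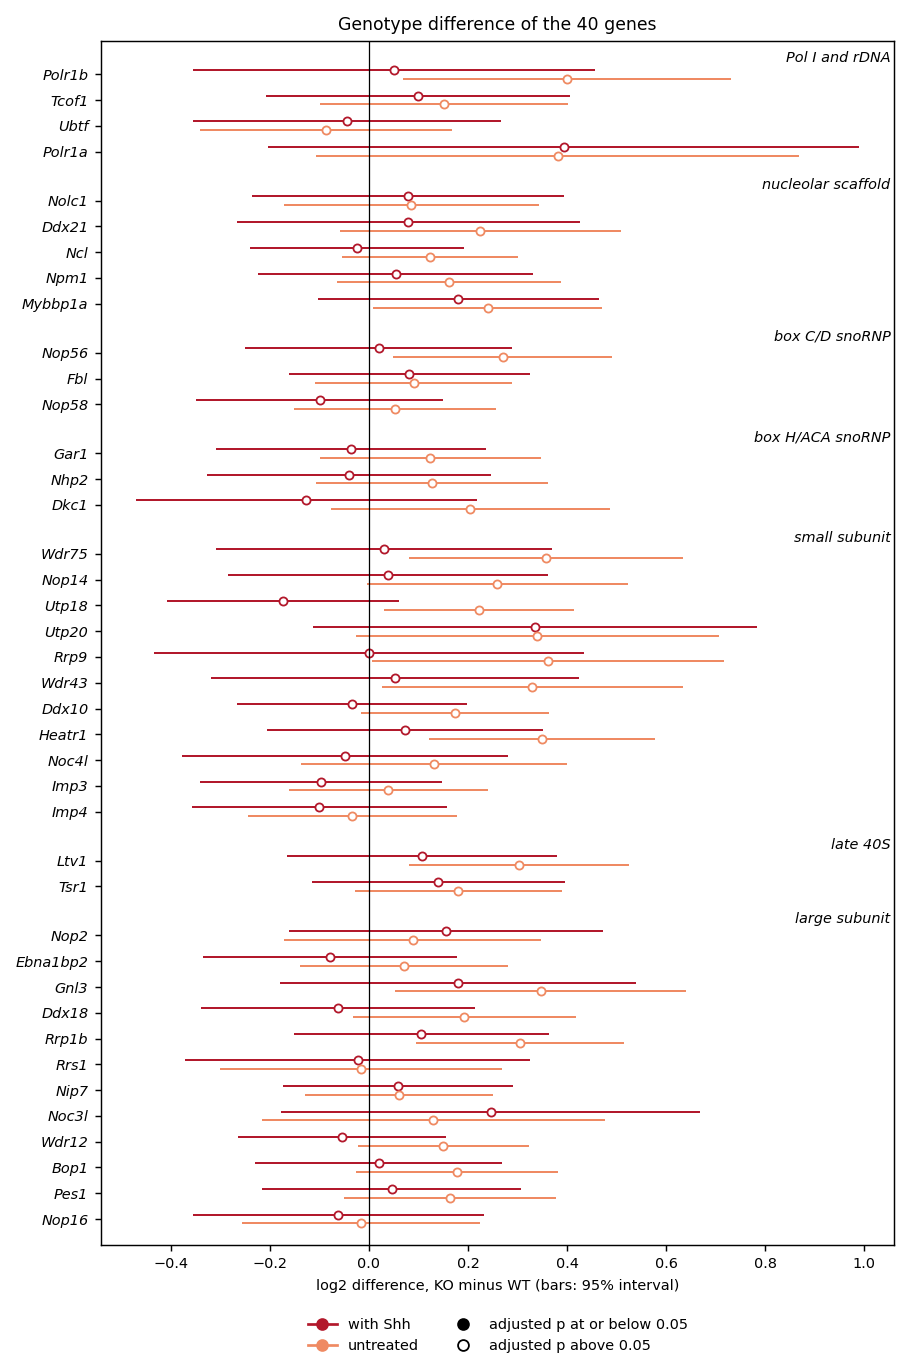
Log2 difference between genotypes, KO minus WT, of each of the 40 genes with Shh (dark red) and without (orange), with 95% intervals from limma. All points are open because 0 genes passed at an adjusted p of 0.05 in either condition, and 36 of the 40 untreated values and 23 of the 40 values with Shh lie above 0.

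Averaged over both conditions, 0 of 40 genes passed, against 1.54% of all tested genes. At an unadjusted p under 0.05, 7 passed, all of them higher in KO cultures, against 13.0% of all tested genes in either direction. That count was 1 without array 7, 1 without array 8, 4 without array 3, 5 or 6, and 3 without arrays 1 and 6 together. The difference between the Shh changes of the 2 genotypes, KO minus WT, passed for 0 of 40, against 0.00877% of all tested genes, and 1 gene, Utp18, had an unadjusted p under 0.05, against 4.92%. The median of this difference was -0.15, and it was above 0 for 4 of the 40 genes, against 50.2% of all tested genes. The median was -0.20 without array 8 and -0.09 without array 10. The difference is built from the same arrays as both Shh changes, so the smaller KO changes and the higher untreated KO signals are not separate observations. The median standard error of a single gene was 0.16 for this difference, against 0.11 for a Shh change. The larger count of genes that rose in WT cultures is therefore not shown to differ gene by gene from that in KO cultures.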

How the data were processed

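RNA of 10 primary cultures was measured on Affymetrix Mouse Genome 430 2.0 arrays, with 1 array per culture. The deposited values are signal intensity on a linear scale, which the authors made with MAS5 and GCOS 1.2, per the submitters' processing notes, and the table holds no detection calls. Each array's 2% trimmed mean is 500, so the values were used as deposited. Of 45101 probe sets, 64 controls were left out, 34945 carried 1 gene symbol, 932 several and 9160 none. Signals under the 25th percentile (20.9) were raised to it before log2, each gene took its brightest probe set, and genes were tested if their mean log2 value reached the median over probe sets (a signal of 76.1).

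All 10 arrays entered a linear model of the 4 group means, fitted by lmFit and eBayes of limma 3.58.1 under R 4.3.3, with 6 residual and 3.11 prior degrees of freedom. Tests were two-sided with Benjamini-Hochberg adjustment over 11405 genes. The procedure was also run on simulated data with independent errors. These held no links between arrays, so that run does not vouch for calls where arrays are linked. The number of arrays limits the precision. Values by array are given for up to 12 genes per comparison with the largest changes past the threshold, for the 4 smallest p-values where fewer than 4 passed, and for the brightest gene of each role. The members and lists were chosen with earlier results of these data known.

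The labels give each array a number of its own. The deviations of arrays with consecutive numbers from their group means correlated at 0.278, 0.120 and 0.218 in untreated and 0.160 in Shh pairs. Other combinations of an untreated KO and an untreated WT array correlated at -0.265 to 0.053. With 2 arrays per Shh group, the Shh pairs necessarily share the same value. A fit with consecutive numbers as pairs in a block was run beside the one without, from which the main calls come. The pairing comes from the data and not from the labels. Promoter windows and names came from RefSeq tables of GRCm38.p6, and 5 of the 40 genes had no promoter in them. Alternatives were the floor, the filter, 2 scalings, the mean of all probe sets, only the groups compared, another variance prior, the block, and arrays left out.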

Additional observations from a re-analysis of the deposited data

Results flagged for a closer look

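The difference between genotypes had opposite directions without and with Shh for 2 of the 40 genes, by the position of every array, against 1.12% of all tested genes. Utp18 had 761, 711 and 732 in untreated KO cultures, against 593, 657 and 639 in untreated WT cultures, and 889 and 867 in Shh-treated KO cultures, against 1047 and 935 in Shh-treated WT cultures. Its log2 difference was -0.17 with Shh and 0.22 without, and the test of the change between them gave -0.40 (SE 0.13, limma adjusted p = 0.842), which did not pass. Wdr12, a member of the PeBoW complex, had 1141, 1144 and 1190.4 in untreated KO cultures, against 1014, 1029 and 1089.5 in untreated WT cultures, and 1135 and 1168 in Shh-treated KO cultures, against 1169 and 1222 in Shh-treated WT cultures. Its log2 difference was -0.05 with Shh and 0.15 without, and the Shh arrays nearest each other, 1167.99 in KO and 1168.67 in WT cultures, were almost equal. The change between the differences was -0.20 (SE 0.12, limma adjusted p = 1.00) and did not pass either.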

How the results depend on the processing

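The count of the 40 genes that rose with Shh was 6 in KO and 19 in WT cultures. It moved to 25 and 39 with arrays centred on their medians, which also moved the median of all genes, and to 3 and 11 with only the groups compared in the fit, where fewer arrays estimate the spread. Without arrays 1 and 6 together, those with high 18S signal, the KO count was 3. Leaving out 1 array at a time gave 2 to 5 in KO and 7 to 18 in WT cultures, with the lone array of a Shh group assumed to vary like the other groups. With consecutive array numbers as a replicate block the counts were 6 and 18, where Nip7 passed in KO cultures (adjusted p = 0.0498), the calls of Ddx10 in KO and Nhp2 in WT cultures were lost, and the block changed no other call. The counts between genotypes, their average and the change between them were 0 in every setting, and fitting only the groups compared gives no value for the last 2. With the mean of all probe sets, 3 genes turned round in WT cultures, Nip7 to -0.16, Rrp1b to -0.14 and Heatr1 to -0.10, and the change between genotype differences of Wdr12 became 0.010. In the same setting the WT calls of Wdr75 (0.058), Ebna1bp2 (0.45) and Ddx18 (0.20) and the KO calls of Fbl (0.27) and Utp20 (0.56, adjusted p = 0.0502) were lost, and 3 WT calls were gained. Calls lost and gained were 2 and 2 in KO and 3 and 3 in WT cultures with no filter, 1 and 1 in KO and 2 and 1 in WT cultures with quantile normalization, and 1 and 4 in KO and 0 and 2 in WT cultures with another variance prior. Under the planned settings Ddx10, Nop14, Nop2 and Utp18 kept their WT calls, and Nop2 kept its KO call, in all that were run.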
